A study of Rattus norvegicus with 54 samples.

Results

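Urine was profiled by miR-seq, which counts the short RNA reads that fall on each mature miRNA, in 12 of the 54 libraries of the series: every urine library taken on day 2, 24 h after a single dose of a liver toxicant or of its vehicle. The groups were 3 rats given acetaminophen (APAP) at 1250 mg/kg, 3 rats given its vehicle methylcellulose, 3 rats given carbon tetrachloride (CCl4) at 1500 mg/kg and 3 rats given its vehicle corn oil. All were male Sprague–Dawley rats, 9 weeks old by the labels, dosed once by oral gavage, fasted overnight and housed singly in metabolic cages while urine was collected. The urine was spun at 1000 g to remove debris, so the miRNAs come from what stayed in the fluid. Each toxicant had its own vehicle, and the 6 toxicant libraries were tested against the 6 vehicle libraries with the study (APAP or CCl4) as a block, then within each study. All urine libraries of the APAP study carried lane 6 in their column names and all those of the CCl4 study lane 7, so lane and study cannot be told apart, while lane did not differ between a toxicant and its vehicle.

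A mature miRNA guides Argonaute proteins to messenger RNAs, mainly through its seed, the bases near its 5′ end, and is named -5p or -3p for the arm of the stem–loop it comes from. Both toxicants are converted inside hepatocytes to reactive products that kill the cells around the central veins, and dying hepatocytes release miRNAs such as miR-122 into blood. Most urinary miRNAs are thought to come from cells that line the kidney tubules and urinary tract, in vesicles or bound to proteins.

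The sequences of the miRNAs on which the results turn are shown 5′ to 3′ with the seed, bases 2 to 8, in capitals, so that members which would pair with the same targets can be recognised. They are RefSeq mature sequences of the GRCr8 build, whereas the reads had been aligned to Rnor_5.0.
miR-3473 (chr13:42051730-42051751, plus strand): uCUAGGGCuggagagauggcua
miR-192-5p (chr1:212994232-212994252, plus strand): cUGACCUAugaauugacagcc
miR-182 (chr4:59752249-59752273, minus strand): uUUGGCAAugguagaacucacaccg
miR-148a-3p (chr4:81664447-81664467, minus strand): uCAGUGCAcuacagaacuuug
miR-21-5p (chr10:71902653-71902674, minus strand): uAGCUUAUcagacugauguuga
miR-22-3p (chr10:60805387-60805408, plus strand): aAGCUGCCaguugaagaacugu
miR-10a-5p (chr10:81779730-81779752, plus strand): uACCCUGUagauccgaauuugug
miR-10b-5p (chr3:80035886-80035907, plus strand): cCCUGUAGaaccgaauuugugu
miR-30a-5p (chr9:33233946-33233967, plus strand): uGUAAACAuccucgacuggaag
let-7c-5p (chr7:118683636-118683657 and chr11:29688127-29688148, both plus strand): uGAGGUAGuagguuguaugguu
let-7f-5p (chr17:16320508-16320529 and chrX:24460052-24460073, both plus strand): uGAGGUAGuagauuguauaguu
The let-7 members share the seed GAGGUAG, which 9 miRNAs with urine reads carried. The annotated 5′ ends of miR-10a-5p and miR-10b-5p are offset, so their annotated seeds differ although the sequences overlap. Of the 205 mature names with urine reads, 184 had a sequence in the table, and miR-320-5p and miR-320-3p are named only.

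The libraries were shallow. The toxicant libraries held 377, 1671 and 1649 reads after APAP and 1418, 1251 and 772 reads after CCl4, and the vehicle libraries held 625, 950 and 1755 reads after methylcellulose and 974, 831 and 1372 reads after corn oil. The 13645 reads made up 0.0444% of all reads counted in the series, and plasma libraries of the same treatments held 21627 to 1290244 reads. The number of reads did not separate toxicant from vehicle, with a difference in mean log2 reads of 0.05 (exact permutation test within study, 2-sided, p = 0.955). One read was worth 0.265% of the shallowest library, and a miRNA with no read in it could still make up as much as 0.796% of its miRNAs. Intervals and limits of this kind cover counting error only, and reads without molecular identifiers are not independent molecules. A share of reads also says nothing of the amount of miRNA per volume of urine, and fewer cells or vesicles of a type cannot be told apart from less of a miRNA in each.

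Of the 832 miRNA rows of the table, 79 of them further copies of a mature miRNA at another locus, 234 had a read in day-2 urine. Most were rare, with 85 rows at 1 read and 159 rows under 10 reads over all 12 libraries, whereas 20 rows reached 100 reads. Reads were seen in both toxicant and vehicle urine for 122 rows, only in toxicant urine for 60 rows with at most 3 reads each, and only in vehicle urine for 52 rows with at most 4 reads each. At 377 reads a library, 46.0, 59.5 and 49.3 miRNA rows were to be expected after APAP, against 56.0, 54.6 and 50.4 rows after methylcellulose, and 35.01, 50.5 and 56.1 rows after CCl4, against 55.6, 71.3 and 60.8 rows after corn oil. Toxicant minus vehicle averaged −8.70 rows, a difference that did not pass the exact permutation test within study (2-sided, p = 0.085, smallest possible p = 0.005). By the same exact test the difference was −10.7 rows with p = 0.02 without APAP library 2, and −5.65 rows with p = 0.185 without CCl4 library 1.

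A small set of miRNAs made up most of the reads. miR-3473 had 1716 reads in all, followed by miR-10b-5p with 1652 and miR-192-5p with 1649, of which 805 were in methylcellulose library 3, and then by miR-22-3p with 1282, miR-10a-5p with 1178 and miR-30a-5p, of a family abundant in kidney epithelium, with 710. By the median share over libraries, miR-3473 made up 16.5% of reads in toxicant urine and 10.4% in vehicle urine, miR-10b-5p 11.8% in toxicant and 10.5% in vehicle urine, and miR-192-5p 5.10% in toxicant and 4.19% in vehicle urine. miR-10a and miR-10b lie in the Hox gene clusters and are abundant in kidney, while miR-192 is made in epithelia of liver, gut and kidney.

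**Figure D1:**
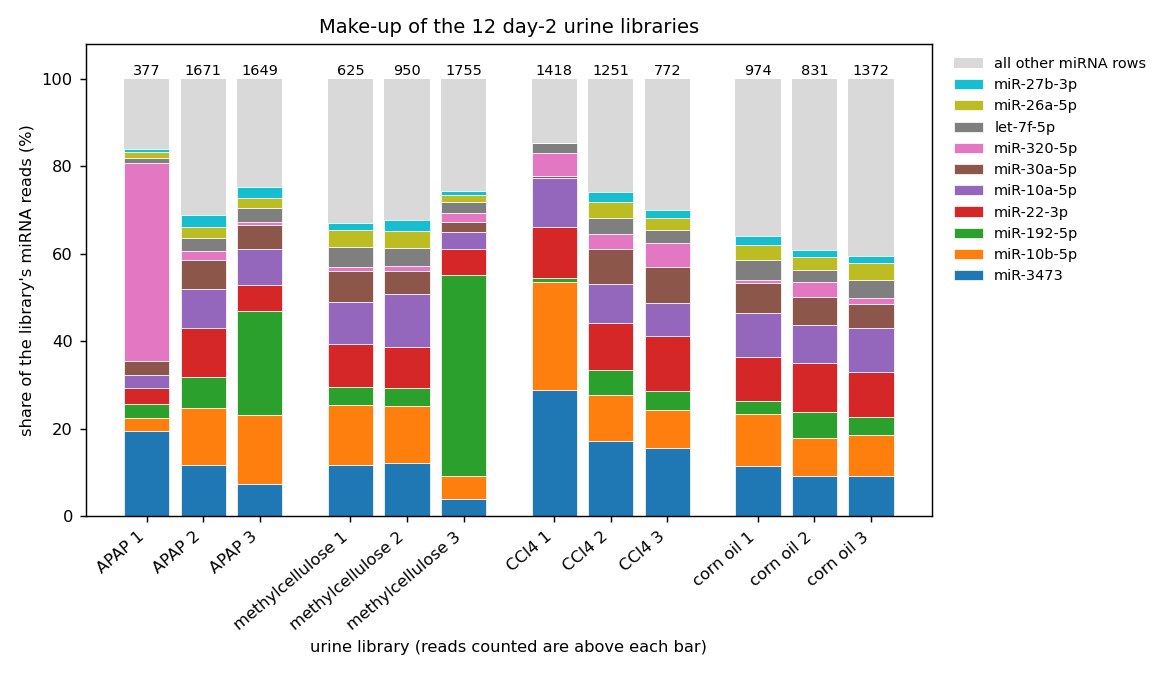
Share of each library's miRNA reads (y axis, %) taken by the 10 mature miRNAs with most reads and by all other rows, in the 12 urine libraries (x axis), with the reads counted above each bar. miR-320-5p fills 45.4% of APAP library 1, miR-192-5p fills 45.9% of methylcellulose library 3 and miR-3473 fills 29.0% of CCl4 library 1.

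Single libraries stood apart within their groups. In APAP library 1, miR-320-5p took 171 of 377 reads (45.4%, 95% Wilson interval 40.4 to 50.4%). In methylcellulose library 3, miR-192-5p took 805 of 1755 reads (45.9%, interval 43.5 to 48.2%). In CCl4 library 1, miR-3473 and miR-10b-5p took 411 and 348 of 1418 reads, its 5 most abundant rows took 81.5%, and miR-26a-5p and miR-181a-5p, widely expressed miRNAs that had reads in the other 11 libraries, were at 0. Between libraries of the same group, a median of 31.4% of reads would have to change miRNA to make a pair alike (12 pairs), and between libraries of different groups 31.1% (54 pairs). The most alike pair of all, corn oil 1 and methylcellulose 1, differed by 12.7% and came from different studies. Libraries were also compared within groups by a chi-square test, and 1 pair in each of 3 groups agreed within sampling noise: methylcellulose 1 and 2 (chi-square per degree of freedom 1.26, p = 0.203), CCl4 2 and 3 (1.41, p = 0.122) and corn oil 1 and 3 (1.49, p = 0.0615). At this depth such agreement does not tell separate rats from one library entered again, so the edgeR tests were repeated with like pairs counted as 1 sample, and the exact tests with methylcellulose 1 and 2 as 1 sample.

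Over both studies, 17 miRNA rows had enough reads to be tested, and 0 of them (0% of those tested) differed between toxicant and vehicle urine after adjustment by edgeR's quasi-likelihood test, while 2 (11.8%) had an unadjusted p under 0.05. DESeq2 also called 0, with 2 under an unadjusted 0.05. The fitted log2 fold changes ran from −1.05 to 2.90 with a median of −0.08, and 8 rows (47.1%) were above 0. For none of the 17 rows did the shares of the 6 toxicant libraries lie wholly apart from those of the 6 vehicle libraries. Where like pairs were counted as 1 sample the number called was still 0.

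**Figure D2:**
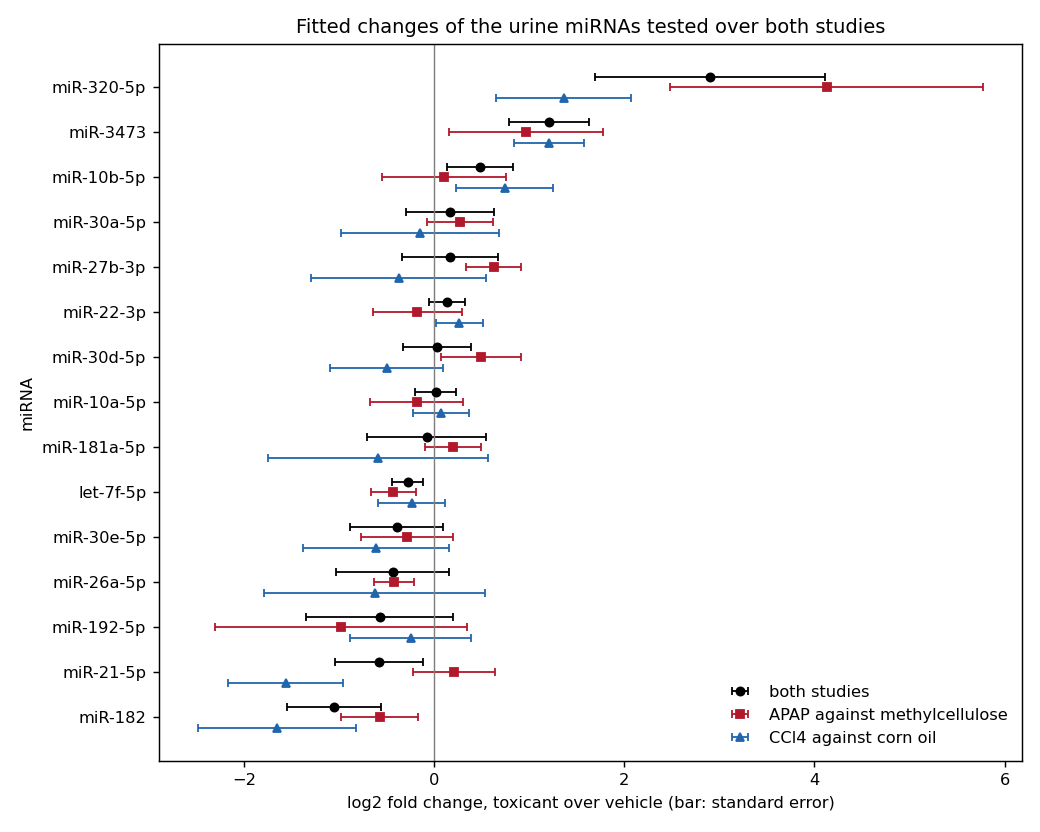
Fitted log2 fold change, toxicant over vehicle (x axis), with its standard error as a bar, for the 15 mature miRNAs tested over both studies (y axis; copies left out), in the fit over both studies (circles) and in the fits of APAP (squares) and CCl4 (triangles). miR-320-5p at 2.90 and miR-3473 at 1.21 stand farthest to the right and miR-182 at −1.05 farthest to the left in the fit over both studies, and none passed the adjusted threshold.

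miR-3473, a rodent miRNA with the most reads in all, had the smallest p. It had 74, 195 and 124 reads after APAP, against 73, 116 and 69 reads after methylcellulose, and 411, 217 and 121 reads after CCl4, against 113, 76 and 127 reads after corn oil. As a share this was 16.8 ± 7.35% of reads in toxicant urine and 9.64 ± 3.09% in vehicle urine (SD, n = 6 each), and 4 of 6 toxicant libraries lay above the highest vehicle library. The log2 fold change was 1.21 ± 0.42 (SE) with an edgeR p of 0.0148, 0.252 after adjustment. The 3 CCl4 libraries lay above all 3 corn oil libraries, whereas the APAP and methylcellulose libraries overlapped.

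miR-320-5p, from the 5′ arm of the miR-320 stem–loop, had 171, 33 and 13 reads after APAP, against 5, 10 and 36 reads after methylcellulose, and 72, 44 and 42 reads after CCl4, against 7, 30 and 19 reads after corn oil. The fitted log2 fold change was 2.90 ± 1.21 (SE), with an edgeR p of 0.0351 and an adjusted p of 0.298. Its size rested on APAP library 1, and over both studies it ranged from 0.68 to 3.47 as each library was left out. The other arm, miR-320-3p, had 0, 1 and 1 reads after APAP, against 0, 1 and 2 reads after methylcellulose, and 3, 2 and 3 reads after CCl4, against 3, 2 and 0 reads after corn oil.

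In the same treatments miR-320-5p was rare outside urine. APAP plasma libraries 1, 2 and 3 held 292, 51 and 18 reads of it among 441758 to 763077 reads, and methylcellulose plasma held 4, 1 and 0. In liver it had 29, 3 and 9 reads after APAP, against 2, 9 and 1 reads after methylcellulose. CCl4 plasma held 19, 3 and 11 reads and corn oil plasma 2, 1 and 1. As shares these were 0.00102 ± 0.000464% and 0.000981 ± 0.000464% (SD, n = 3 each). CCl4 liver held 2, 5 and 19 reads, against 0, 0 and 3 after corn oil. Library 1 was thus the highest of the APAP group in urine, plasma and liver, and the labels do not say whether these libraries came from 1 rat.

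miR-182, processed from a cluster with miR-183 and miR-96 that is active in sensory organs and other epithelia, had 1, 22 and 30 reads after APAP, against 8, 20 and 37 reads after methylcellulose, and 1, 13 and 6 reads after CCl4, against 12, 15 and 41 reads after corn oil. The shares were 0.881 ± 0.655% in toxicant urine and 1.92 ± 0.649% in vehicle urine (SD, n = 6 each), and all 6 toxicant libraries lay below the vehicle median although the groups overlapped. The log2 fold change was −1.05 ± 0.49 (SE; edgeR adjusted p = 0.316). miR-183-5p, its cluster partner, had 5 reads in toxicant urine and 7 reads in vehicle urine and could not be tested.

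let-7f-5p, of the let-7 family that is high in differentiated tissues, was also below the vehicle median in all 6 toxicant libraries, at 2.72 ± 0.894% of reads in toxicant urine and 3.78 ± 0.944% in vehicle urine. Its log2 fold change of −0.28 ± 0.16 (SE) did not pass the edgeR test (adjusted p = 0.429). Without CCl4 library 1, let-7f-5p (−0.52) and miR-26a-5p (−0.43) both had an adjusted p of 0.0345, and these calls were absent in the other 11 fits that left out a library. miR-26a-5p had −0.44 ± 0.59 (SE; edgeR adjusted p = 0.749) with all libraries. miR-30e-5p, of the miR-30 family, had 1, 16 and 13 reads after APAP, against 2, 15 and 13 reads after methylcellulose, and 2, 15 and 8 reads after CCl4, against 9, 14 and 14 reads after corn oil, a log2 fold change of −0.39 ± 0.49 (SE; edgeR adjusted p = 0.749).

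miR-192-5p showed how far a single vehicle library could carry a group. It had 12, 120 and 389 reads after APAP, against 26, 39 and 805 reads after methylcellulose, and 14, 71 and 35 reads after CCl4, against 31, 49 and 58 reads after corn oil. The share averaged 11.3 ± 10.8% after APAP and 18.0 ± 24.1% after methylcellulose (SD, n = 3 each), and the log2 fold change over both studies was −0.57 ± 0.77 (SE; edgeR adjusted p = 0.749). Without methylcellulose library 3 the sign turned, to 0.60 over both studies and 1.96 for APAP, neither past the adjusted threshold. Its cluster partner miR-194-5p had 0, 7 and 15 reads after APAP, against 0, 0 and 26 reads after methylcellulose, and 0, 2 and 0 reads after CCl4, against 2, 3 and 1 reads after corn oil, so it was highest in the same libraries as miR-192-5p within the APAP study.

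The other abundant miRNAs did not pass the test either. The log2 fold change was 0.48 ± 0.35 (SE) for miR-10b-5p (−0.15 without CCl4 library 1), 0.14 ± 0.19 for miR-22-3p, 0.02 ± 0.21 for miR-10a-5p and 0.17 ± 0.47 for miR-30a-5p. miR-21-5p, widely raised in injured tissue, had 4, 43 and 15 reads after APAP, against 13, 7 and 22 reads after methylcellulose, and 4, 16 and 4 reads after CCl4, against 18, 15 and 39 reads after corn oil, with a log2 fold change of −0.58 ± 0.46. It ran from −1.18 (without APAP library 2) to −0.46 as each library was left out. miR-27b-3p, broadly expressed in epithelia and vessels, had 3, 46 and 42 reads after APAP, against 10, 23 and 13 reads after methylcellulose, and 1, 29 and 14 reads after CCl4, against 20, 15 and 22 reads after corn oil, with 0.17 ± 0.51. Their edgeR adjusted p ran from 0.551 to 0.945, and within APAP and within CCl4 the groups overlapped except for miR-21-5p after CCl4.

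**Figure D3:**
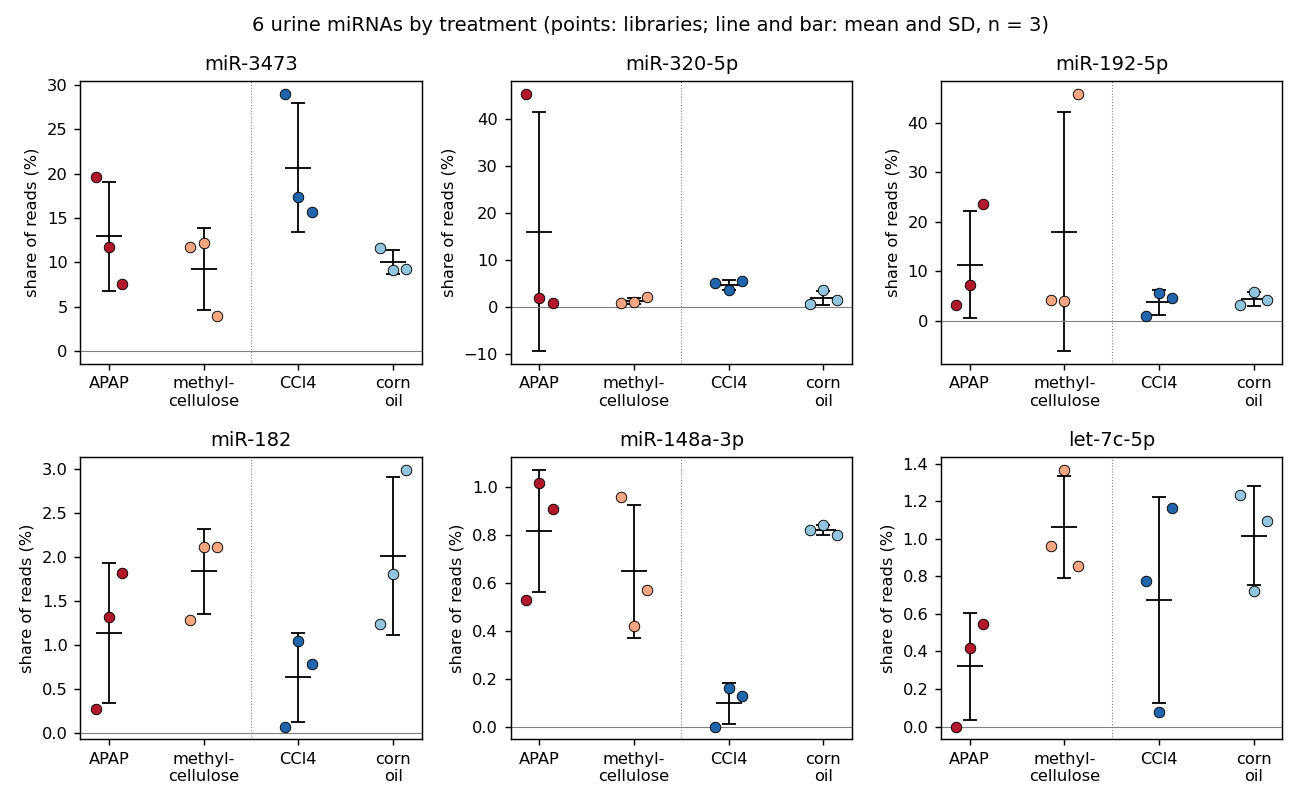
Share of reads (y axis, %) of 6 miRNAs in the 3 libraries of each treatment (x axis; points, with the mean and SD as line and bar; an SD bar can reach below 0 although a share cannot). The CCl4 points of miR-3473 lie above and those of miR-148a-3p and miR-182 below all corn oil points, while the APAP mean of miR-320-5p and the methylcellulose mean of miR-192-5p are each carried by 1 point.

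For APAP against methylcellulose, 20 rows were tested and 0 (0%) passed the adjusted edgeR threshold, with 3 (15%) under an unadjusted 0.05. DESeq2 called 0, with 2 under an unadjusted 0.05. The fitted log2 fold changes were above 0 for 10 rows (50%). The shares of the 3 APAP and 3 methylcellulose libraries did not overlap for 2 of 20 rows (10%), which were let-7c-5p and its copy. let-7c-5p had 0, 7 and 9 reads after APAP, against 6, 13 and 15 reads after methylcellulose, a log2 fold change of −1.37 ± 0.50 (SE; edgeR adjusted p = 0.207). miR-320-5p had the same adjusted p of 0.207 at a log2 fold change of 4.13 ± 1.65. It averaged 16.0 ± 25.4% of reads after APAP and 1.30 ± 0.662% after methylcellulose (SD, n = 3 each), and without APAP library 1 its log2 fold change was 0.03.

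For CCl4 against corn oil, 20 rows were tested and 0 (0%) passed the adjusted edgeR threshold, with 2 (10%) under an unadjusted 0.05. DESeq2 called 0, with 3 under an unadjusted 0.05. The fitted log2 fold changes were above 0 for 6 rows (30%). Shares did not overlap for 3 of 20 rows (15%), which were miR-3473, miR-21-5p and miR-182. miR-3473 made up 20.7 ± 7.25% of reads after CCl4 and 10.0 ± 1.39% after corn oil (SD, n = 3 each), a log2 fold change of 1.21 ± 0.37 (SE; edgeR adjusted p = 0.309). miR-21-5p made up 0.693 ± 0.521% after CCl4 and 2.17 ± 0.587% after corn oil, with −1.56 ± 0.60 (adjusted p = 0.394), and miR-182 had −1.65 ± 0.83 (adjusted p = 0.504). Without CCl4 library 1 the fold change of miR-3473 was smaller, at 0.72, and its adjusted p was 4.85e-05, while miR-320-5p had 1.22 with an adjusted p of 0.0316.

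The response to APAP was then set against the response to CCl4 by an interaction term. Of 22 rows tested, 1 (4.55%) passed the edgeR threshold, miR-148a-3p, which is abundant in liver. It had 2, 17 and 15 reads after APAP, against 6, 4 and 10 reads after methylcellulose, and 0, 2 and 1 reads after CCl4, against 8, 7 and 11 reads after corn oil. The CCl4 libraries were low and did not overlap with corn oil, whereas APAP and methylcellulose overlapped. The difference of the log2 fold changes was 3.34 ± 0.80 (SE; edgeR adjusted p = 0.0368). It rested on these few reads, and its adjusted p was over the threshold under 11 of the 13 alternatives in which it was tested, including DESeq2 (0.0715). Within the CCl4 study alone miR-148a-3p had too few reads to be tested, and in 1 fit of all 4 groups its CCl4 log2 fold change was −2.88 ± 0.63 (adjusted p = 0.0185).

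The miRNAs most often used as signs of liver injury had few or no reads in the urine. miR-122-5p, a liver-enriched miRNA, had 0, 5 and 1 reads after APAP, against 2, 0 and 2 reads after methylcellulose. It had 0 reads in all CCl4 and corn oil libraries. In liver of the same treatments miR-122-5p made up 2.12 ± 0.115% of reads after APAP and 2.10 ± 0.138% after methylcellulose. miR-122-3p and both arms of miR-802, which is enriched in liver, had 0 reads in all 12 urine libraries. miR-31a-5p had 3 reads and miR-365-5p had 2, and the other arms of both had none, so 3 of the 8 arms of miR-122, miR-802, miR-31a and miR-365 were seen at all and 0 could be tested. miR-365-5p was rare in liver too, with 1 read after APAP and 2 reads after methylcellulose, and 7 reads after CCl4 and 1 read after corn oil.

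The urine counts of miR-122-5p were set beside its share in plasma. At its share in APAP plasma (0.180 ± 0.0230%, SD, n = 3), miR-122-5p would have given 6.66 of the 3697 APAP urine reads, and 6 were counted. At its share in methylcellulose plasma it would have given 0.0477 of 3330 reads, and 4 were counted. By the column names, lane 6 held these urine libraries and also CCl4 liver libraries 2 and 3, with 49803 and 51009 miR-122-5p reads. Whether reads crossed between libraries of a lane was not tested, and such reads cannot be told apart from miR-122-5p of the urine. In CCl4 urine 0 of 3441 reads allows a share of up to 0.0872%, against a CCl4 plasma share of 0.0910 ± 0.0727% (SD, n = 3), at which 3.13 reads would have been given. miR-802-5p at its APAP plasma share would have given 1.13 reads.

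The other fixed lists are given by their counts, with none of their members past the adjusted edgeR threshold over both studies, where 0% of all rows were called. Of 20 liver-abundant miRNAs, 11 had urine reads and 3 were tested, miR-192-5p, miR-22-3p and miR-21-5p. Their median log2 fold change of −0.57, against −0.08 over all 17 rows, is that of miR-192-5p, which turned to 0.60 without methylcellulose library 3. miR-22-3p was above 0, at 0.14, so the median does not describe the list as a class. Of 29 kidney epithelium miRNAs, 22 had urine reads and 6 were tested, with a median of 0.02. miR-192 and miR-194 stand on both this list and the liver-abundant list. The summed share of the kidney epithelium list ran from 13.5 to 58.5% in toxicant urine (median 38.8%) and from 34.8 to 63.5% in vehicle urine (median 38.5%). The lowest was APAP library 1. The highest was methylcellulose library 3, where miR-192-5p gave 805 of the 1114 reads of the list. miR-378a-3p, another member, had 1, 12 and 10 reads after APAP, against 3, 9 and 12 reads after methylcellulose, and 19, 11 and 7 reads after CCl4, against 10, 8 and 11 reads after corn oil.

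The families of the abundant miRNAs were tested in part. Of the let-7 family, 10 of 21 had urine reads and 1 was tested, and the summed share was 3.18 to 10.9% in toxicant urine (median 8.89%) and 8.03 to 16.6% in vehicle urine (median 13.99%). The groups overlapped, with APAP library 1 the lowest. This sum counts copies at other loci beside the members, such as 494 reads of the let-7f-5p copy beside 446 of let-7f-5p. The copies of let-7a-5p and let-7c-5p also entered it, so the share overstates the family. Of the miR-30 family, 8 of 9 had reads and 3 were tested (median log2 fold change 0.03, that of miR-30d-5p, which had 128 reads), and of the miR-10 family 9 of 15 had reads and 2 were tested (median 0.25). miR-30c-5p was sparse, at 0, 6 and 3 reads after APAP, against 4, 6 and 3 reads after methylcellulose, and 0, 1 and 1 reads after CCl4, against 9, 7 and 8 reads after corn oil.

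Epithelial markers were present at low counts. The miR-200 family, which keeps epithelial cells from turning mesenchymal, took 0.265 to 1.55% of reads in toxicant urine and 0.316 to 2.29% in vehicle urine, with miR-200b-3p at 51 reads, miR-429 at 33 and miR-141-3p at 31, and none of its 9 members was tested. The urothelium and keratinized epithelium list took 0.265 to 1.52% of reads in toxicant urine and 0.320 to 1.56% in vehicle urine. Its members included miR-203a-3p with 48 reads and miR-205, typical of stratified epithelium, with 17 reads. miR-184 had 0, 1 and 1 reads after APAP, against 0, 1 and 0 reads after methylcellulose, and 1, 12 and 4 reads after CCl4, against 2, 2 and 1 reads after corn oil.

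Blood and other cell types left few reads. Red blood cell miRNAs took 0.212 to 1.30% of reads in toxicant urine and 0.205 to 2.41% in vehicle urine. miR-451-5p, the defining red blood cell miRNA, had 12 reads, 10 of them in corn oil library 3, miR-16-5p had 43 reads, and miR-92a-3p had 14 reads in toxicant urine and 23 reads in vehicle urine. The white blood cell list was almost wholly miR-181a-5p, with 237 reads, which epithelia also express, since miR-223 had none, miR-142-5p had 3 and miR-146b-5p had 6. Platelet and endothelium miRNAs took 0 to 1.30% in toxicant urine and 0.480 to 1.56% in vehicle urine, led by miR-191a-5p with 79 reads. Muscle miRNAs had 2 reads in all, 1 of miR-133a-3p and 1 of miR-133b-5p. The nervous system list had reads for 3 of its 17 members with copies left out, miR-9a-5p with 5 reads and miR-128-3p and miR-138-5p with 1 each. A copy of miR-124-3p had 1 read as well. The smooth muscle list had 24 reads of miR-143-3p, 14 of them in APAP library 2, and 1 read of miR-199a-5p. The injury and fibrosis list had reads for 10 of its 23 members, took 0.494 to 2.99% of reads in toxicant urine and 1.16 to 3.43% in vehicle urine, and was mostly miR-21-5p, its 1 tested member, followed by miR-21-3p with 13 reads. miR-375-3p, a marker of endocrine pancreas that gut also makes, had 1, 0 and 14 reads after APAP, against 1, 1 and 4 reads after methylcellulose, and 4, 0 and 1 reads after CCl4, against 6, 4 and 4 reads after corn oil. The part of these cells in the results above was not tested.

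Several other miRNAs that the study singled out in these same urine libraries, and which are therefore not independent evidence here, had too few reads to be tested. miR-126a-5p, an endothelial miRNA, had 1, 6 and 0 reads after APAP, against 0 reads in every methylcellulose library. miR-185-5p had 2, 2 and 0 reads after APAP, against 0 in every methylcellulose library, and miR-130b-3p had 1, 0 and 1 after APAP, against 0 in every methylcellulose library. miR-450a-5p had 3, 1 and 2 reads after CCl4, against 0 in every corn oil library. Over all 12 libraries these had 10 reads of miR-126a-5p, 10 of miR-185-5p, 2 of miR-130b-3p and 7 of miR-450a-5p. Rows without a vehicle read had at most 3 reads. miR-126a-5p and miR-185-5p were thus also seen in corn oil urine and miR-450a-5p in methylcellulose urine. How many of all rows share such a pattern was not counted. The study also singled out miR-148a-5p, with 10 urine reads in all, miR-92a-1-5p with 4, let-7b-5p with 16 and miR-351-5p with 10, none of them tested. miR-148a-5p and miR-92a-1-5p are not the arms miR-148a-3p and miR-92a-3p whose reads are given above. let-7i-5p had 12, 8 and 4 reads after CCl4, against 4, 2 and 4 reads after corn oil. As shares these were 0.846, 0.639 and 0.518% after CCl4, all above the 0.411, 0.241 and 0.292% after corn oil. In the APAP study the mean share went the other way, at 0.397% after APAP and 0.659% after methylcellulose.

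Plasma of the same treatments was the closest sample type for comparison. The toxicant effect in urine minus that in plasma was tested for the 17 rows by an interaction of toxicant with fluid, and 4 (23.5%), all lower, passed the edgeR threshold. They were miR-182, miR-192-5p, miR-22-3p and miR-21-5p. In plasma miR-192-5p made up 20.3 ± 6.99% of reads after APAP and 0.561 ± 0.222% after methylcellulose, and 4.89 ± 3.00% after CCl4 and 1.11 ± 0.714% after corn oil (SD, n = 3 each), whereas in urine the share was 11.3% after APAP and 18.0% after methylcellulose, and 3.73% after CCl4 and 4.44% after corn oil. The urine effect of miR-192-5p was lower than the plasma effect by −5.21 ± 1.11 on the log2 scale (SE; adjusted p = 0.000706). It was −5.62 to −3.57 as each library was left out (−3.57 without urine methylcellulose library 3) and −3.44 with the most abundant miRNA left out.

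For miR-182 the plasma share was 0.306 ± 0.0979% after APAP and 0.0238 ± 0.0155% after methylcellulose, and 0.129 ± 0.0934% after CCl4 and 0.0313 ± 0.0246% after corn oil, and the difference was −5.08 ± 0.83 (edgeR adjusted p = 4.12e-05). It was −4.40 without CCl4 plasma library 1, −4.47 without urine methylcellulose library 3 and −3.12 with the most abundant miRNA left out. Its share was higher in vehicle urine than in any plasma group, while toxicant plasma exceeded vehicle plasma. miR-22-3p, expressed in most tissues and abundant in liver, made up 29.3 ± 7.23% of plasma reads after APAP and 7.01 ± 0.259% after methylcellulose, and 13.8 ± 3.35% after CCl4 and 8.30 ± 3.02% after corn oil, with a difference of −2.05 ± 0.52 (adjusted p = 0.00336). miR-21-5p had the same difference of −2.05 ± 0.66 (edgeR adjusted p = 0.0194). Its plasma shares overlapped in both studies, at 2.69 ± 0.141% after APAP and 2.08 ± 0.902% after methylcellulose. They were 2.70 ± 0.369% after CCl4 and 1.70 ± 1.13% after corn oil. The adjusted p of miR-21-5p was 0.0819 without urine methylcellulose library 3, 0.0514 without CCl4 plasma library 1 and 0.0502 without urine CCl4 library 3.

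**Figure D4:**
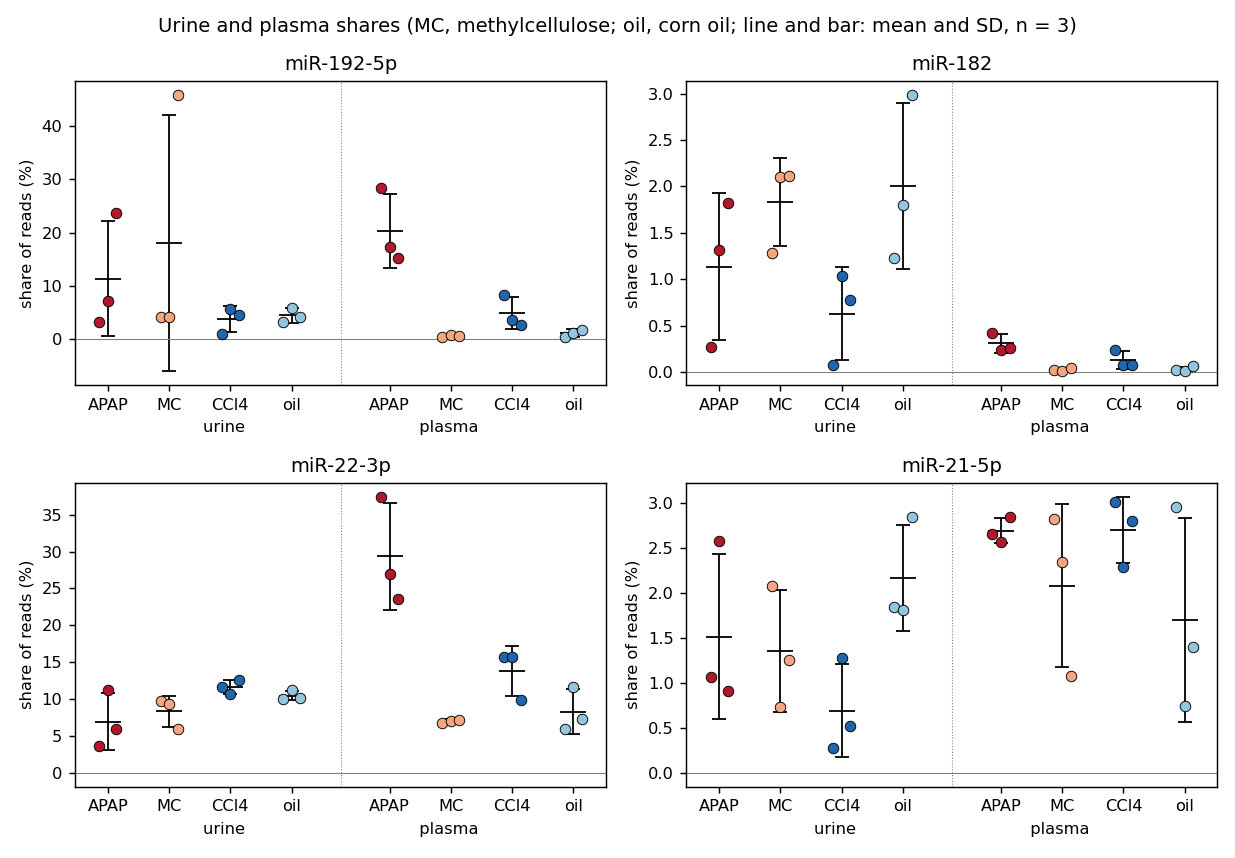
Share of reads (y axis, %) of the 4 miRNAs whose toxicant effect differed between urine and plasma, in urine (left of each panel) and plasma (right) of the 4 treatments (points are libraries, line and bar are mean and SD, n = 3; an SD bar can reach below 0 although a share cannot). In plasma the APAP and CCl4 points of miR-192-5p lie above those of their vehicles, whereas in urine the highest point is a methylcellulose library at 45.9%.

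The calls for miR-182 and miR-192-5p were made under all 34 alternatives, those for miR-22-3p under 30 and those for miR-21-5p under 25. The scaling mattered here, since the median log2 difference over the 17 rows was −0.78 with TMM, 0.44 with RLE and −0.02 with total counts. With RLE scaling or DESeq2, miR-22-3p and miR-21-5p were not called, and miR-3473, miR-10a-5p and miR-10b-5p were called higher, that is with a larger toxicant effect in urine than in plasma on that scaling. Urine and plasma differed in depth by more than 10 times, and rats sampled for both fluids cannot be matched from the labels, so the fluids may not be independent.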

How the data were processed

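Small RNA from 200 µl of urine was sequenced by the authors as 36 base reads on a GAIIx from TruSeq Small RNA libraries. Reads were aligned by OSA v4 against the Rnor_5.0 genome and miRBase v21 (2 mismatches; reads at over 10 genomic locations left out), which limits reads shared by copies and the authors deposited a table of raw counts per mature miRNA, not normalized. Columns were matched to samples by the deposited column names, and 0 columns were left without a sample.

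Counts were tested in R 4.3.3 with edgeR 4.0.16 (TMM, filterByExpr with minimum count 10 and minimum total 15, glmQLFit, 2-sided glmQLFTest, Benjamini-Hochberg over the rows tested, threshold 0.05). DESeq2 1.42.0, RLE scaling, total counts, other filters, copies counted once, the replicate block, like libraries as 1 sample and libraries left out were alternatives. SE is the log2 fold change over the square root of F. Shares use all reads of a library, and summed shares of lists count further copies of a mature miRNA as rows of their own. The fits were also run on simulated counts with planted changes. The outcome is not given here, so the power of the tests at this depth is not stated. Exact permutations ran over 400 regroupings within study (Python 3.11.15, SciPy 1.17.1). Libraries held 377 to 1755 reads, so 1 read was 0.0570 to 0.265% of a library. The paper analysed 3 animals per treatment, and the edgeR tests set a difference against the spread between these libraries.

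Named were the 10 smallest p, all miRNAs past a threshold, the 10 with most reads, 2 members with most reads of each list, miRNAs the paper names for these urines and both arms of miR-122, miR-802, miR-31a and miR-365; copies were named once. The members and lists were chosen with earlier results of these data known.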

Additional observations from a re-analysis of the deposited data

Results flagged for a closer look

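In the 17 mature miRNAs with at least 100 urine reads, each of the 6 toxicant and the 6 vehicle libraries was checked for a share of reads far from the others, 34 checks in all. Chance marks about 1 in 20 such groups, and 6 were marked. Among toxicant libraries they were miR-320-5p at 45.4% in APAP 1 and miR-192-5p at 23.6% in APAP 3. Among vehicle libraries all were in methylcellulose 3, with miR-192-5p at 45.9%, miR-3473 at 3.93%, miR-22-3p at 5.98% and miR-30a-5p at 2.22%. Shares within a library sum to a whole, so the last 3 are not independent of the share of miR-192-5p.

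The effects of APAP and CCl4 differed for miR-148a-3p, by 3.34 on the log2 scale in the edgeR interaction test, on 34 reads after APAP, 20 reads after methylcellulose, 3 reads after CCl4 and 26 reads after corn oil. The toxicant effect in urine was lower than in plasma for miR-182 by a log2 difference of −5.08, for miR-192-5p of −5.21, for miR-22-3p of −2.05 and for miR-21-5p of −2.05.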

How the results depend on the processing

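With 377 to 1755 reads a library, 17 of 234 rows could be tested, and low counts elsewhere do not show absence. Of 603 alternatives to 27 values of named miRNAs, 558 kept direction and side of the threshold, 12 newly passed it, 24 no longer passed and 9 changed sign; the causes were not tested. Over both studies the calls were 1 with no filter (miR-320-5p, 2.55) and 0 to 3 as each library was left out (3 without CCl4 1). For APAP they were 1 with total counts and 1 with no filter (miR-320-5p, 3.56 and 3.76), and 1 without APAP 1 and methylcellulose 3 (miR-192-5p, 2.31, adjusted p = 5.35e-05), an alternative chosen after seeing the data, as were the like pairs and the removal of 3 libraries. For CCl4 they were 0 to 2 as libraries were left out (2 without CCl4 1) and 1 in 1 fit of the 4 groups. The interaction had 0 calls with DESeq2, no filter, a mean of at least 10 reads, copies counted once, the most abundant miRNA left out, methylcellulose 1 and 2 as 1 sample, and like pairs as 1 sample, and 0 as each library was left out. miR-148a-3p itself was tested in only 13 alternatives, 6 of which left out a library, against 23 and 12 for miR-21-5p. Its edgeR or DESeq2 adjusted p there ran from 0.0281 to 0.9998. With 83 reads over 12 libraries it was not tested at a mean of at least 10 reads, so that setting could not call it. Without APAP 1, CCl4 1 and methylcellulose 3 the 1 interaction call was another miRNA, miR-192-5p (2.12, adjusted p = 0.00155). Urine against plasma had 7 calls with no filter.

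The difference in mean log2 reads was −0.131 to 0.406 as libraries were left out and −0.0493 with methylcellulose 1 and 2 as 1 sample, and that in rows at equal depth −10.9 to −5.65. As libraries were left out miR-10b-5p was −0.147 to 0.626 over both studies and −0.0547 to 1.13 for CCl4, negative without CCl4 1. miR-192-5p was −1.08 to 0.603 over both studies and −2.14 to 1.96 for APAP, positive without methylcellulose 3, and also without 3 libraries (1.16) and without APAP 1 and methylcellulose 3 (2.31). The interaction of miR-320-5p was −1.29 (without APAP 1) to 3.803 as libraries were left out and −0.30 without 3 libraries, against 2.58 with all. The median over the 17 rows was −0.08 with TMM, −0.13 with RLE and −0.24 with total counts.

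With the replicate number as a block the calls were 0 over both studies, 0 for APAP, 0 for CCl4, 4 for urine against plasma and 0 for the interaction, where miR-320-5p had −0.32 and miR-148a-3p an adjusted p of 0.109. Same-numbered deviations correlated by −0.02, 0.32 and 0.09 in the APAP study and −0.17, −0.35 and 0.28 in the CCl4 study (17 rows each). Not every library correlated best with its own number. With so few rows and reads, these correlations cannot decide whether the numbers pair the libraries.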
